A study of Mus musculus with 12 samples.

Results

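The genes described here are 31 genes of cholesterol and fatty acid synthesis and of their control by sterol regulatory element-binding proteins (SREBPs), taken by name from 55822 gene entries measured in primary mouse aortic smooth muscle cells. All 31 passed the filter on low counts, which kept 16140 genes. They fall into 8 genes of the mevalonate steps, 11 of the squalene and sterol steps, 6 of SREBP control and sterol transport and 6 of fatty acid synthesis. RNA was sequenced in 12 libraries of 3 groups with 4 libraries each. In the naive CM group the cells received conditioned medium (CM) of bone marrow-derived macrophages that had been left unstimulated. In the IFNγ/LPS CM group the medium came from macrophages given 20 ng/mL interferon gamma overnight and 100 ng/mL lipopolysaccharide for 4 h, and then washed. Cells of both CM groups were first starved for 48 h in 0.3% serum and then held for 24 h in CM, which itself contained 0.3% serum and 10 ng/mL M-CSF, the growth factor on which macrophages are grown. The third group, regular medium, had standard growth medium. The serum content of that medium, and whether those cells were starved, are not stated in the labels, so a difference between naive CM and regular medium cannot be told apart from a difference in serum, starvation or M-CSF. The sample titles call the 4 libraries of each group biological replicates. Whether these stem from separate animals or from separate dishes is not in the labels. The p-values therefore measure only the spread between the libraries at hand, which may not include differences between animals.

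Cells make cholesterol from acetyl-CoA through mevalonate, a chain of isoprenoid diphosphates, squalene and a series of sterols. The genes of this chain are switched on together by SREBPs, transcription factors that are made as precursors in the endoplasmic reticulum membrane. When membrane cholesterol is low, SCAP carries the precursor to the Golgi, where it is cut and its active end released. When sterols are plentiful, INSIG proteins hold SCAP in the endoplasmic reticulum. SREBP-2, from Srebf2, acts mainly on cholesterol synthesis and SREBP-1, from Srebf1, mainly on fatty acid synthesis. Arterial smooth muscle cells can take up lipid and become foam cells in atherosclerosis, a setting in which they lie beside macrophages.

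Levels are counts per 1000000 (CPM) of the library total scaled by TMM, which sets the scale so that the bulk of genes stays level. Totals per library ran from 28097496 to 61493375 estimated counts for regular medium, 28542613 to 56323683 for naive CM and 40270540 to 44607657 for IFNγ/LPS CM. Mean TMM factors were 1.09, 1.09 and 0.836 in that order, so both comparisons with IFNγ/LPS CM were also made on unscaled library totals. The 10 smooth muscle markers summed to 1110 to 1231 CPM for regular medium. For naive CM the sum was 711 to 803 CPM and for IFNγ/LPS CM 236 to 256 CPM. Myh11 and Cnn1, markers of mature smooth muscle, were under 1 CPM in every library. In IFNγ/LPS CM against naive CM 8 of the 10 were lower and 1, Mylk, was higher, against 35.8% and 36.1% of all genes. In naive CM against regular medium 4 were higher and 4 lower, against 18.3% and 16.4% of all genes. The 12 macrophage markers summed to 13.0 to 15.1, 19.5 to 21.3 and 47.8 to 59.1 CPM in the same order. Most of the last sum was Cd14, at a mean of 42.9 CPM, while Ptprc stood at 0.00724 CPM there. Only Cd14, Cd68, Csf1r and Lyz2 were testable. All 4 were higher in IFNγ/LPS CM than in naive CM, as were 36.1% of all genes. Fcgr1 had no count in any library and Adgre1 none in regular medium or naive CM. Tyrobp had none in regular medium, Itgam none in naive CM and Laptm5 none in IFNγ/LPS CM. The 7 endothelial markers summed to at most 3.12 CPM and Tie1 had no count. The 6 fibroblast markers summed to 103.9 to 111, 260 to 279 and 2287 to 2595 CPM, none of them at 0 in any group. Most of that sum was Ly6a (2379 CPM in IFNγ/LPS CM), and against naive CM 2 of the 6, Ly6a and Pdgfra, were higher, Dpt, Pi16 and Cd34 were lower and Lum did not pass the test. In such bulk samples fewer cells of a type and less RNA per cell cannot be told apart, and the part of these markers in the results was not tested.

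In cells given IFNγ/LPS CM, most cholesterol and fatty acid synthesis genes were lower than in cells given naive CM. Of the 31 genes 20 fell and 5 rose, and 6 did not pass the test (edgeR quasi-likelihood F-test, Benjamini-Hochberg adjusted p below 0.05). Over all genes tested 35.8% were lower and 36.1% higher in this comparison, against 64.5% and 16.1% of the 31. The counts by role in the paragraphs below have the same background. The median log2 fold change was -0.70 over the 31 genes and 0.0039 over all genes, and the members ranged from -2.04 to 1.58. None of the 20 that fell and none of the 5 that rose overlapped between the 4 libraries of each group, and over all genes 34.6% were lower and 34.9% higher without overlap. On unscaled library totals 26 of the 31 were lower and 2, Insig2 and Ggps1, were higher, with 58.1% of all genes lower, 20.3% higher and an all-gene median of -0.38. The 20 falls held on that scale, whereas Ebp, Sc5d, Scap, Acly and Srebf1 changed sign, the last 2 of them not called with TMM.

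**Figure D1:**
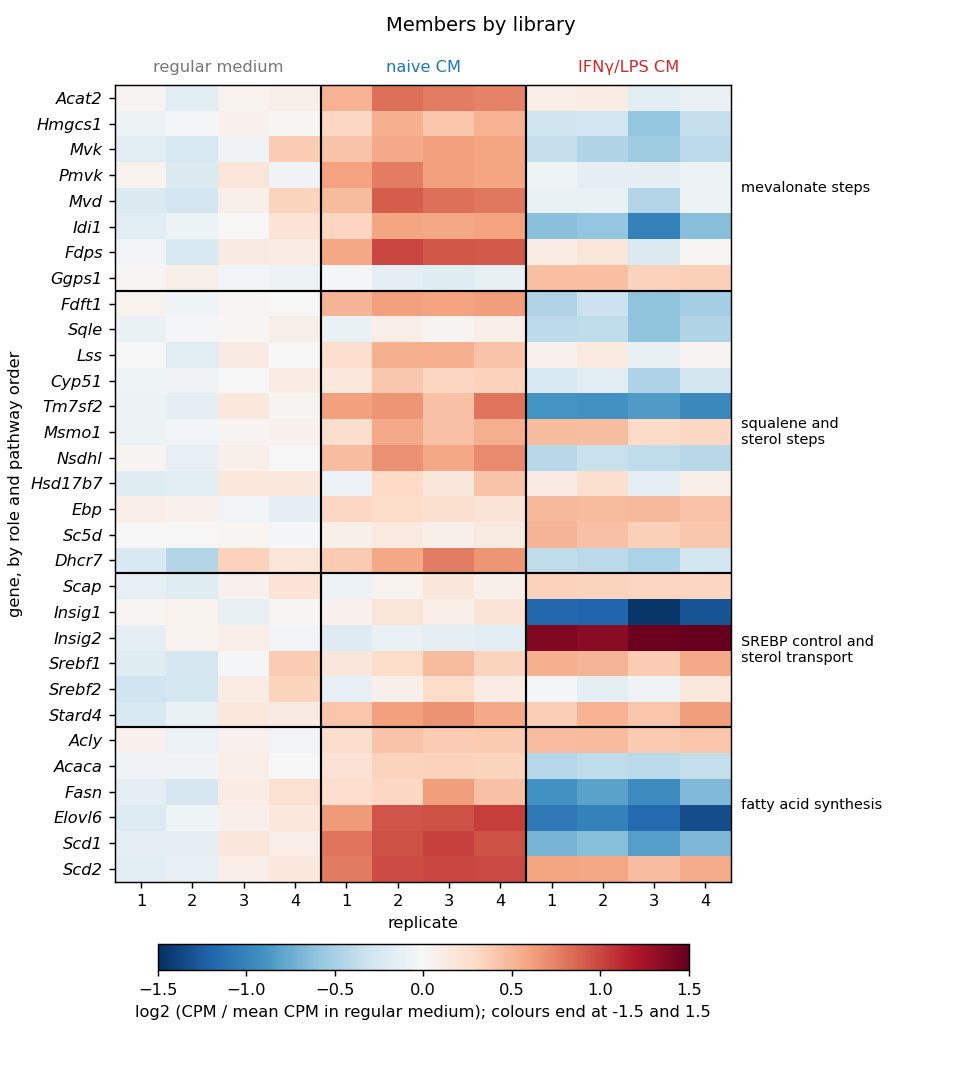
Level of the 31 genes (rows, by role) in each of the 12 libraries (columns, by group), as log2 of CPM over the gene's mean CPM in regular medium; red is higher and blue lower. Most synthesis genes are red in the 4 naive CM libraries and paler or blue in the 4 IFNγ/LPS CM libraries, while Insig2 is deep red in IFNγ/LPS CM and near white elsewhere.

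The mevalonate steps lead from acetyl-CoA to farnesyl and geranylgeranyl diphosphate. Of these 8 genes 7 fell in IFNγ/LPS CM against naive CM and 1 rose, with a median log2 fold change of -0.83. Idi1, the isomerase that makes dimethylallyl diphosphate, had 80.5, 96.9, 96.2 and 97.5 CPM in naive CM and 41.7, 43.1, 31.8 and 41.1 CPM in IFNγ/LPS CM. Every IFNγ/LPS CM library lay far under every naive CM library, and the fall was 2.35-fold (log2 -1.23, SE 0.109, edgeR adjusted p = 6.02e-07). Its regular medium libraries, at 57.4, 60.7, 64.5 and 74.1 CPM, lay between the other two groups without touching either.

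Mvk, which encodes mevalonate kinase, had 24.8, 27.3, 28.3 and 27.7 CPM in naive CM and 14.4, 13.5, 12.7 and 13.9 CPM in IFNγ/LPS CM. The groups were clearly apart, with a 1.98-fold fall (log2 -0.99, SE 0.110, edgeR adjusted p = 1.00e-06). In regular medium Mvk had 16.4, 15.6, 17.8 and 23.9 CPM, with replicate 4 the highest but still under all naive CM libraries. Mvd, the decarboxylase that closes the mevalonate steps proper, fell 1.90-fold and Hmgcs1, the synthase that makes HMG-CoA, fell 1.77-fold. Pmvk, the kinase that follows Mvk, fell 1.68-fold and Acat2, the cytosolic thiolase at the entry, fell 1.66-fold. For these 4 genes the highest IFNγ/LPS CM library, such as 99.1 CPM for Hmgcs1, was under the lowest naive CM library, 150 CPM for the same gene.

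Fdps and Ggps1 use the products of these steps and moved apart. Fdps, which makes farnesyl diphosphate, had 73.7, 99.1, 94.5 and 93.4 CPM in naive CM and 53.5, 56.1, 42.7 and 50.2 CPM in IFNγ/LPS CM, a 1.78-fold fall (log2 -0.83, SE 0.115, edgeR adjusted p = 4.42e-05). Replicate 1 was its lowest naive CM library and still above every IFNγ/LPS CM library. Exons of Fdps share 1124 bases on the same strand with the predicted gene Gm43738, so its reads may be divided between them. Ggps1, which makes the geranylgeranyl diphosphate used to attach small GTPases to membranes, had 90.1, 83.3, 80.8 and 85.1 CPM in naive CM and 126, 126, 117 and 118 CPM in IFNγ/LPS CM. All 4 IFNγ/LPS CM libraries were higher, by 1.43-fold (log2 0.52, SE 0.0457, edgeR adjusted p = 4.71e-09), and on library totals the rise was 0.13 on the log2 scale with an adjusted p of 0.0166.

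The squalene and sterol steps commit farnesyl diphosphate to sterols and end in cholesterol. Of these 11 genes 7 fell, 2 rose and 2 did not pass the test. Their median log2 fold change was -0.49. Tm7sf2, the sterol reductase that follows Cyp51, had 10.6, 11.0, 9.37 and 12.1 CPM in naive CM and 3.71, 3.70, 3.85 and 3.54 CPM in IFNγ/LPS CM. The fall was 2.91-fold (log2 -1.54, SE 0.0973, edgeR adjusted p = 2.90e-11) and the groups lay well apart. Tm7sf2 shares 532 exon bases on the same strand with Vps51, so part of its count is uncertain. Fdft1, squalene synthase and the first enzyme given over to sterols alone, had 121, 130, 129 and 131 CPM in naive CM and 62.0, 68.1, 55.7 and 59.7 CPM in IFNγ/LPS CM. These sets did not overlap, and the fall was 2.08-fold (log2 -1.06, SE 0.0520, edgeR adjusted p = 5.82e-13). Exons of Fdft1 overlap those of Ctsb on the opposite strand by 774 bases.

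Nsdhl, a dehydrogenase that takes part in removing methyl groups from the sterol ring, fell 2.00-fold, and Dhcr7, the reductase that gives cholesterol in the last step of a branch, fell 1.98-fold from 6.99 ± 0.746 to 3.52 ± 0.197 CPM (mean ± SD, n = 4). Smaller falls were measured for the demethylase gene Cyp51 (1.51-fold), for Sqle, the squalene epoxidase (1.40-fold), and for Lss, lanosterol synthase (1.33-fold). Thus Sqle, Lss and Cyp51 fell by less than Fdft1 before them or Tm7sf2 after them, although the differences between genes were not tested. Msmo1, the methylsterol oxidase, had a log2 fold change of -0.08 (edgeR adjusted p = 0.273) and Hsd17b7, a ketosteroid reductase, -0.13 (edgeR adjusted p = 0.350), both with overlapping libraries. Without naive CM replicate 1, Msmo1 passed the test at -0.14 (edgeR adjusted p = 0.0324). On library totals both were lower, Msmo1 at -0.47 (edgeR adjusted p = 2.70e-06) and Hsd17b7 at -0.52 (edgeR adjusted p = 0.00149).

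Sc5d and Ebp, a desaturase and an isomerase near the end of the chain, rose. Sc5d had 106, 112, 106 and 111 CPM in naive CM and 144, 137, 129 and 134 CPM in IFNγ/LPS CM, a 1.25-fold difference (log2 0.32, SE 0.0393, edgeR adjusted p = 5.66e-07). Ebp had 51.1, 49.6, 48.5 and 47.0 CPM in naive CM and 57.6, 57.0, 57.5 and 55.2 CPM in IFNγ/LPS CM, a 1.16-fold difference (log2 0.21, SE 0.0499, edgeR adjusted p = 0.000810). Neither pair of groups overlapped, but on library totals the log2 fold changes turned to -0.07 for Sc5d (adjusted p = 0.137) and -0.17 for Ebp (adjusted p = 0.00482). On that scale the all-gene median was -0.38, so both remained above the median gene.

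**Figure D2:**
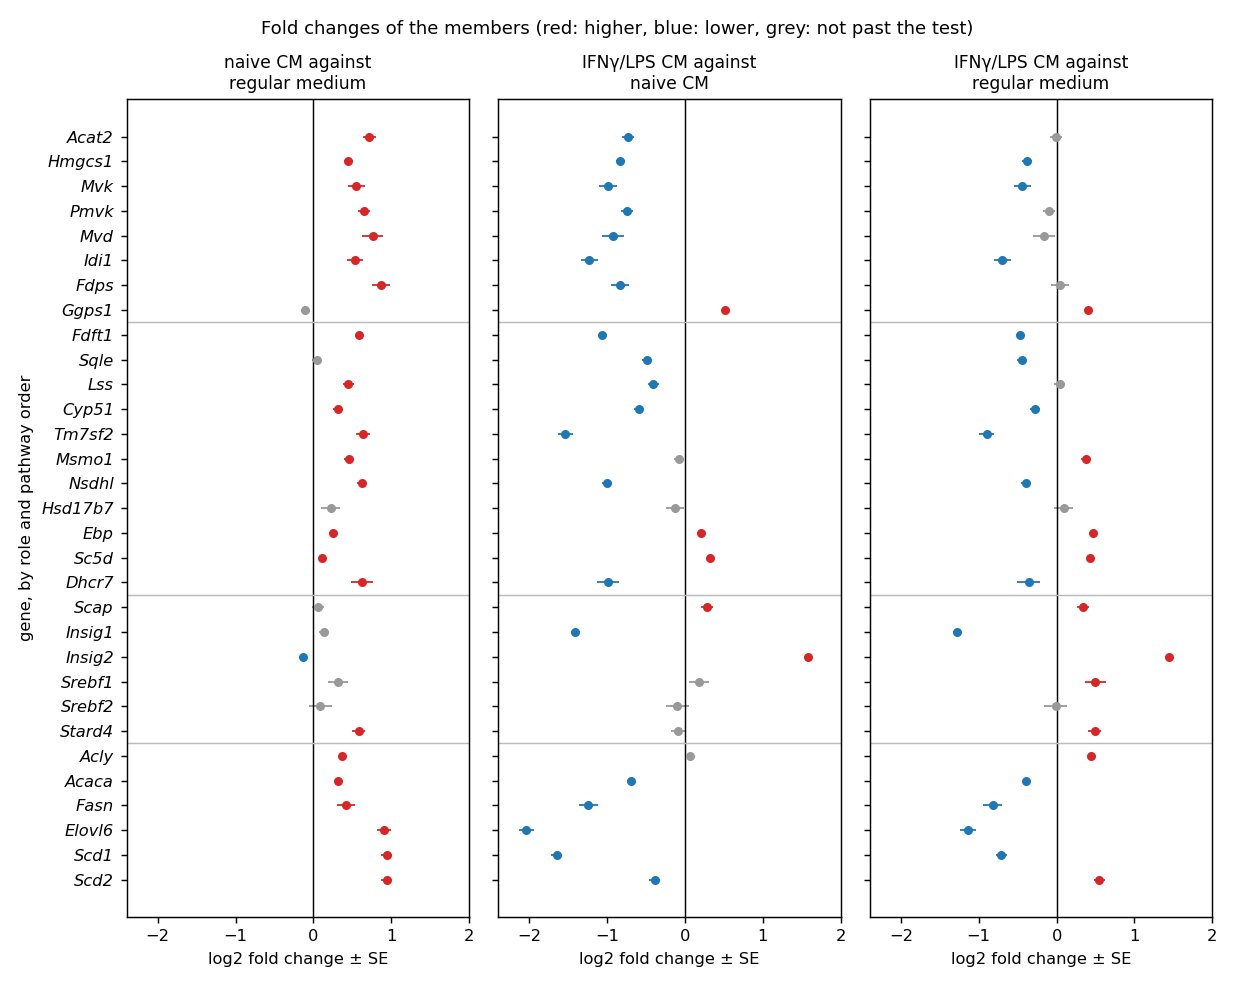
Log2 fold change (points) with SE (bars) of each of the 31 genes, by role, in the 3 comparisons; red is higher, blue lower and grey did not pass the test. Values lie mostly right of 0 in the left panel, from -0.14 to 0.94, mostly left of 0 in the middle panel, from -2.04 to 1.58, and on both sides in the right panel, from -1.28 to 1.44.

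The SREBP control genes did not move as 1 group. Of 6 genes Insig2 and Scap rose, Insig1 fell and 3 did not pass the test. These are 33.3% higher and 16.7% lower, against 36.1% and 35.8% of all genes, so the share that rose was near the background. The median log2 fold change of the 6 genes was 0.04. Insig1 is itself a target of SREBPs, and Insig2 encodes the related anchor protein. Insig1 had 297, 324, 305 and 325 CPM in naive CM and 126, 125, 104.1 and 116 CPM in IFNγ/LPS CM, with 290, 296, 264 and 290 CPM in regular medium. The IFNγ/LPS CM libraries stood far below both other groups, and the fall against naive CM was 2.66-fold (log2 -1.41, SE 0.0562, edgeR adjusted p = 2.88e-14). Insig2 had 42.4, 45.4, 44.0 and 43.5 CPM in naive CM, 127, 124, 134 and 138 CPM in IFNγ/LPS CM and 44.2, 50.4, 52.1 and 47.1 CPM in regular medium. Here the IFNγ/LPS CM libraries were high and no other library came near them, with a rise of 2.99-fold against naive CM (log2 1.58, SE 0.0518, edgeR adjusted p = 8.82e-16). The rise was 1.19 on the log2 scale on library totals (adjusted p = 2.44e-14).

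A ratio of counts within a library does not depend on the scale between libraries. The mean log2 ratio of Insig1 to Insig2 was 2.56 ± 0.159 for regular medium and 2.83 ± 0.0475 for naive CM, but -0.16 ± 0.184 for IFNγ/LPS CM (SD, n = 4). The difference of -2.99 between the CM groups had p = 0.0286 in a two-sided exact permutation test, also after adjustment over the 3 ratios tested, which is the smallest p that 4 libraries against 4 can give. Per kilobase of exon, Insig1 stood at 101.1 ± 4.45 CPM and Insig2 at 12.6 ± 0.359 CPM in naive CM. In IFNγ/LPS CM the levels were 38.0 ± 3.23 and 37.7 ± 1.89 CPM per kilobase, which overlap within their spread.

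Promoter sequence is shown for this pair, whose RNA moved in opposite directions, and for 3 genes that fell. These are Hmgcs1, Mvk, with 5 NF-Y boxes, and Fasn from the fatty acid branch. Among the 25 genes searched, the core of the sterol regulatory element was found in Hmgcs1 alone. Sequences are RefSeq promoter windows on GRCm38.p6, from 250 bases before a transcription start, trimmed of annotated exons and printed 5′ to 3′ on the gene's own strand. They lie at chr5:28071162-28071362 for Insig1 on the plus strand, chr1:121332590-121332839 for Insig2 on the minus strand, chr13:119690101-119690350 for Hmgcs1 on the plus strand, chr5:114444061-114444268 for Mvk on the plus strand and chr11:120824548-120824797 for Fasn on the minus strand. Insig2 has 3 start sites in RefSeq and the first is shown. The windows of its other starts held no NF-Y box. Which start was in use is not given by gene counts. Capitals mark the NF-Y box, CCAAT, which is seen as ATTGG where it lies on the other strand, the E-box, CACGTG, and the sterol regulatory element core, TCACCCCAC. A run of 8 capitals in Fasn holds 2 overlapping NF-Y boxes, 1 on each strand.
Insig1: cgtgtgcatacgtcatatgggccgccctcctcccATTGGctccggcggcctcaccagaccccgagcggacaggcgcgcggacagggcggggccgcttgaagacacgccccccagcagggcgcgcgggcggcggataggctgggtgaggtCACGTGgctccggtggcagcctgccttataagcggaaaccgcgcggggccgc
Insig2: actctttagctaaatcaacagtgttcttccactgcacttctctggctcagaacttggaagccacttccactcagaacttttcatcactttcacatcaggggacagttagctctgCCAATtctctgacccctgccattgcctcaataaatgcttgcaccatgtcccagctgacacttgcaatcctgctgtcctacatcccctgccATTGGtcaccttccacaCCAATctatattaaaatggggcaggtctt
Hmgcs1: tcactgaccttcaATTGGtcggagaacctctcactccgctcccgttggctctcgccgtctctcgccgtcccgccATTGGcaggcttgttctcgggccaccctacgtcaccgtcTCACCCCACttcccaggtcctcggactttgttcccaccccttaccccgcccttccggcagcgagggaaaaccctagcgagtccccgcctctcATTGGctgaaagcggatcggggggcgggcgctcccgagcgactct
Mvk: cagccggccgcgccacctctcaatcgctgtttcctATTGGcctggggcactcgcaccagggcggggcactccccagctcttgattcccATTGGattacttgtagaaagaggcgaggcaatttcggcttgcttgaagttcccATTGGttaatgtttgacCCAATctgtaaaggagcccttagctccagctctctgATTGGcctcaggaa
Fasn: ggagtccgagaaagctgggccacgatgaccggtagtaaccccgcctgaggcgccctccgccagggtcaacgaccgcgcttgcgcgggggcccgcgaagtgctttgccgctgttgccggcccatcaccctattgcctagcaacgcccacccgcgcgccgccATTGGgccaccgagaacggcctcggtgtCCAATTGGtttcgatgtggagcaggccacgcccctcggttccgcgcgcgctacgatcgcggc

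The letters were searched on both strands in the 250 bases before each RefSeq start, for 25 of the 31 genes with a RefSeq window. No sequence was used for Fdps, Fdft1, Sqle, Stard4, Scd1 and Scd2. CCAAT was found for 20 of 25 genes (80%), against 37.5% of 27025 genes with windows of that length. This background, used for each motif, holds every gene with a RefSeq window, expressed here or not, whereas the 25 genes all passed the filter on low counts. A gene with several windows was counted if any of them matched. The CCAAT box was found in 12 of the 15 genes that fell in IFNγ/LPS CM and in 8 of the 10 others, so it was as common in genes of either behaviour. Insig2 is counted among the others through the window of its first start alone. CACGTG was found for 5 genes (20%, against 6.86% of all genes), 2 of the 15 that fell and 3 of the 10 others. TCACCCCAC was found for Hmgcs1 alone (4%, against 0.555%), and the looser TCACNCCAC, which contains it, also for Hmgcs1 alone (4%, against 1.22%). These are matches of letters in 1 short window and say nothing of whether a factor was bound.

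The genes of the SREBPs themselves did not pass the test with TMM, and their values depended on the scale. Srebf1 had 76.2, 82.1, 94.6 and 85.5 CPM in naive CM and 98.0, 96.7, 88.2 and 100.5 CPM in IFNγ/LPS CM. The groups overlapped and the log2 fold change of 0.18 (SE 0.129) did not pass the test (edgeR adjusted p = 0.234); it passed in a fit of the CM groups alone (edgeR adjusted p = 0.0232) and without regular medium replicate 4 (edgeR adjusted p = 0.0200). On library totals the Srebf1 value turned to -0.21 (edgeR adjusted p = 0.164). Srebf2 had 57.8, 66.2, 76.4 and 67.9 CPM in naive CM and 62.3, 56.9, 60.6 and 70.2 CPM in IFNγ/LPS CM. These also overlapped, at a log2 fold change of -0.10 (SE 0.148, edgeR adjusted p = 0.570), but on library totals Srebf2 was lower, at -0.49 (edgeR adjusted p = 0.0112), with the all-gene median at -0.38. The log2 ratio of Srebf1 to Srebf2 within a library was 0.11 ± 0.107 (SD, n = 4) for regular medium, 0.34 ± 0.0418 for naive CM and 0.62 ± 0.114 for IFNγ/LPS CM. Between the CM groups it was higher by 0.28 in IFNγ/LPS CM (exact permutation p = 0.0286, the smallest possible, and 0.0286 over the 3 ratios). The mean ratio was also higher in naive CM than in regular medium, a difference that was not tested. Exons of Srebf1 overlap those of Rai1 on the opposite strand by 109 bases.

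Scap, which escorts the SREBP precursor, had 87.9, 96.8, 105 and 98.4 CPM in naive CM and 119, 118, 117 and 117 CPM in IFNγ/LPS CM. The 4 IFNγ/LPS CM libraries were nearly equal and all higher, by 1.22-fold (log2 0.28, SE 0.0735, edgeR adjusted p = 0.00315), but the log2 fold change was -0.11 on library totals (adjusted p = 0.180). Stard4, a carrier that moves sterols between membranes, had 28.9, 33.1, 34.5 and 32.1 CPM in naive CM and 27.98, 30.9, 28.8 and 33.4 CPM in IFNγ/LPS CM. These overlapped, with a log2 fold change of -0.09 (edgeR adjusted p = 0.374), and on library totals Stard4 was lower, at -0.47 (edgeR adjusted p = 4.65e-05).

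Fatty acid synthesis uses the same acetyl-CoA as cholesterol synthesis and is driven mainly by SREBP-1. Of these 6 genes 5 fell and none rose, with a median log2 fold change of -0.97, and only Acly did not pass the test. Elovl6, which lengthens palmitate, had 22.9, 28.2, 28.5 and 30.1 CPM in naive CM and 6.97, 7.24, 6.54 and 5.81 CPM in IFNγ/LPS CM. Its fall of 4.13-fold was the largest of the 31 genes (log2 -2.04, SE 0.0990, edgeR adjusted p = 1.17e-12), and the regular medium libraries, at 12.7, 14.0, 15.5 and 16.4 CPM, lay between with no overlap on either side. Fasn, fatty acid synthase, fell 2.36-fold (log2 -1.24, SE 0.122, edgeR adjusted p = 3.53e-06), from 209 ± 24.6 to 88.5 ± 7.97 CPM (SD, n = 4). Acaca, the carboxylase that makes malonyl-CoA, fell 1.63-fold (edgeR adjusted p = 1.81e-11). Acly, which makes cytosolic acetyl-CoA from citrate, stood at 273 ± 13.5 CPM in naive CM and 287 ± 7.21 CPM in IFNγ/LPS CM (log2 0.07, edgeR adjusted p = 0.164), and at -0.32 on library totals (adjusted p = 3.69e-06).

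Scd1 and Scd2 are neighbouring genes on chromosome 19 (Scd1 at 44394455 to 44407879, Scd2 at 44293674 to 44306864, GRCm38) and encode stearoyl-CoA desaturases, which put the first double bond into fatty acids. Their sequences are alike, so counts may have been divided between them. Scd1 had 344, 381, 399 and 381 CPM in naive CM and 121, 126, 111 and 123 CPM in IFNγ/LPS CM, a 3.13-fold fall (log2 -1.65, SE 0.0734, edgeR adjusted p = 1.91e-11). Scd2 had 863, 992, 1008 and 1003 CPM in naive CM and 758, 756, 694 and 744 CPM in IFNγ/LPS CM, a 1.31-fold fall (log2 -0.39, SE 0.0702, edgeR adjusted p = 0.000127). Neither gene's groups overlapped, and Scd1 was lower by far more. The log2 ratio of Scd1 to Scd2 stood at -1.36 ± 0.0589 in regular medium and at -1.36 ± 0.0326 in naive CM, but at -2.62 ± 0.0285 in IFNγ/LPS CM (SD, n = 4). The difference between the CM groups was -1.26 (exact permutation p = 0.0286, the smallest possible, and 0.0286 over the 3 ratios). Per kilobase of exon Scd2 was the highest of the 31 genes in IFNγ/LPS CM, at 135 ± 5.53 CPM, followed by Acly at 54.3 ± 1.37, and Insig1 and Insig2 at about equal levels; Scd1 stood at 24.6 ± 1.30.

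**Figure D3:**
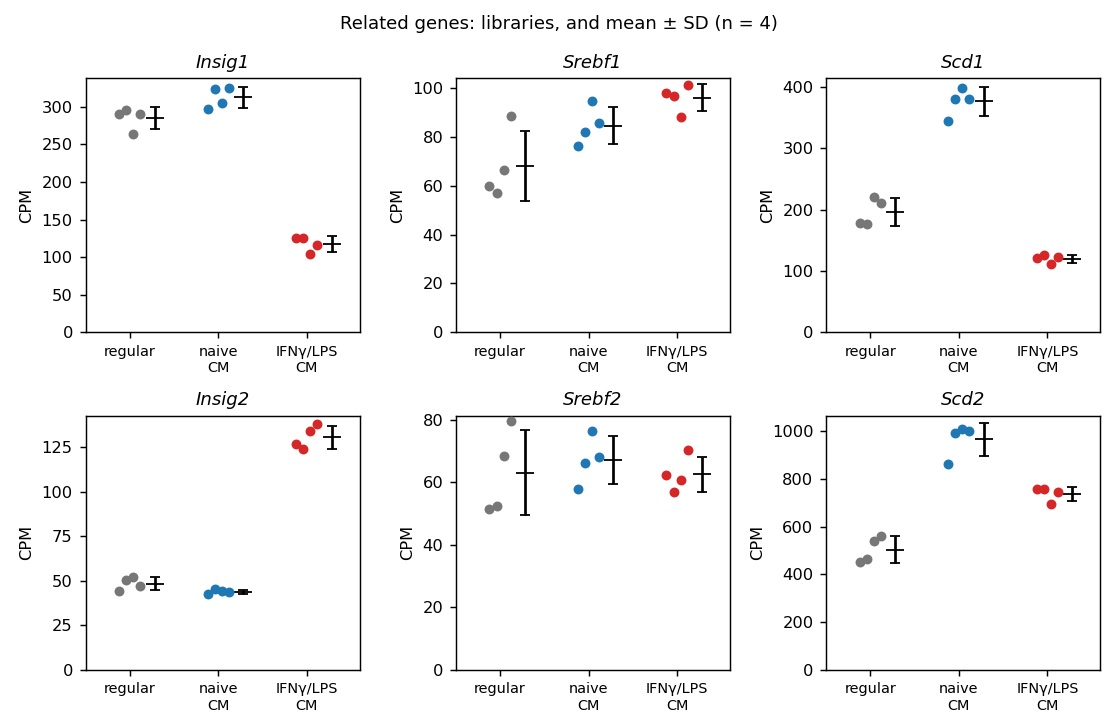
CPM of Insig1, Insig2, Scd1, Scd2, Srebf1 and Srebf2 in each library (points) with the group mean and SD. Insig1 and Insig2 lie far apart in regular medium and naive CM and at about 118 and 131 CPM in IFNγ/LPS CM; Scd1 has its lowest mean there, 120 CPM, while the Scd2 mean of 738 CPM lies between the 504 CPM of regular medium and the 967 CPM of naive CM.

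Naive CM against regular medium gave the opposite pattern. Of the 31 genes 23 were higher in naive CM, 1 was lower and 7 did not pass the test. Over all genes 18.3% were higher and 16.4% lower, which is also the background of the counts by role below. Over the 31 genes the median log2 fold change was 0.45, against -0.02 over all genes, and the range was -0.14 to 0.94. In 24 of the 31 genes every naive CM library lay above every regular medium library and in none did every one lie below, against 17.2% and 15.5% of all genes. None of these differences reached 2-fold. For 9 of the 31 genes the fold was larger here than in IFNγ/LPS CM against naive CM, among them Scd2 (1.92 and 1.31), Stard4 (1.49 and 1.06) and Msmo1 (1.38 and 1.06). The naive CM libraries serve as controls in the first comparison and as the treated group here, so a library that is high in naive CM adds to both a rise in the latter and a fall in the former.

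All 6 fatty acid synthesis genes rose in naive CM, with a median log2 fold change of 0.67. Scd1 had 178, 177, 220.7 and 210 CPM in regular medium, so the naive CM libraries given above were 1.92-fold higher (log2 0.94, SE 0.0717, edgeR adjusted p = 1.54e-07). Scd2, with 450, 464, 540 and 563 CPM in regular medium, was also 1.92-fold higher (log2 0.94, SE 0.0708, edgeR adjusted p = 8.07e-08). Both rose from a range in which regular medium replicates 1 and 2 were low and 3 and 4 high, with no overlap with naive CM. Elovl6 rose 1.88-fold (log2 0.91, SE 0.0918, edgeR adjusted p = 5.33e-07), Fasn 1.34-fold (edgeR adjusted p = 0.0205) and Acly 1.29-fold (edgeR adjusted p = 3.44e-06). The Fasn call was lost without naive CM replicate 3 (edgeR adjusted p = 0.0514) or regular medium replicate 1 (edgeR adjusted p = 0.0557).

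Among the mevalonate steps 7 of 8 rose, with a median log2 fold change of 0.60. Fdps had 48.0, 42.4, 54.1 and 53.5 CPM in regular medium, and its naive CM libraries were 1.83-fold higher with no overlap (log2 0.87, SE 0.114, edgeR adjusted p = 0.000136). Mvd rose 1.70-fold, Acat2 1.65-fold, Pmvk 1.57-fold, Mvk 1.47-fold, Idi1 1.45-fold and Hmgcs1 1.37-fold. Ggps1, with 92.8, 97.5, 89.6 and 87.4 CPM in regular medium, was the exception, at a log2 fold change of -0.11 with overlapping libraries (edgeR adjusted p = 0.0614). It passed the test as lower with the replicate number as a block (edgeR adjusted p = 0.0336), without naive CM replicate 1 (edgeR adjusted p = 0.0363) and without regular medium replicate 4 (edgeR adjusted p = 0.0274).

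Of the squalene and sterol steps 9 of 11 rose, with a median of 0.45. Tm7sf2 had 6.56, 6.30, 7.74 and 7.13 CPM in regular medium and was 1.56-fold higher in naive CM (log2 0.64, SE 0.0915, edgeR adjusted p = 2.15e-05). Fdft1 had 88.1, 81.2, 85.8 and 84.7 CPM in regular medium and was 1.5-fold higher (log2 0.59, SE 0.0510, edgeR adjusted p = 5.04e-08). Both were separate from naive CM in every library. Sqle stood at a log2 fold change of 0.04 (edgeR adjusted p = 0.649) and Hsd17b7 at 0.22 (edgeR adjusted p = 0.179). Hsd17b7 passed without naive CM replicate 1, at 0.32 (edgeR adjusted p = 0.0332). Ebp, with 44.0, 42.8, 40.0 and 37.5 CPM in regular medium, rose 1.19-fold with no overlap. Sc5d, with 100.7, 100.5, 102.99 and 98.8 CPM in regular medium, rose 1.08-fold (edgeR adjusted p = 0.0337), a call lost without a filter (edgeR adjusted p = 0.0503) and, at an edgeR adjusted p of 0.0536 to 0.104, without naive CM replicate 2 or 4 or regular medium replicate 1, 2 or 4.

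In SREBP control and sterol transport only Stard4 rose and only Insig2 fell. Each is 16.7% of the 6 genes, near the 18.3% higher and 16.4% lower of all genes. Stard4 had 18.4, 20.2, 24.2 and 23.6 CPM in regular medium and was 1.49-fold higher in naive CM without overlap (log2 0.58, SE 0.0845, edgeR adjusted p = 5.24e-05). Insig2 was 1.1-fold lower in naive CM with overlapping libraries (log2 -0.14, SE 0.0516, edgeR adjusted p = 0.0385). That call was lost with DESeq2, limma-voom and a fit of the groups compared alone, and, at an edgeR adjusted p of 0.0657 to 0.128, without naive CM replicate 1, 3 or 4 or regular medium replicate 2 or 3. Insig1 was higher in every naive CM library than in any regular medium library, at a log2 fold change of 0.13 (SE 0.0546, edgeR adjusted p = 0.0672), and passed the test under 5 of the 20 alternatives. Scap had 85.9, 82.2, 97.2 and 108 CPM in regular medium, overlapping naive CM (log2 0.06, edgeR adjusted p = 0.585).

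Srebf1 had 59.7, 57.0, 66.6 and 88.6 CPM in regular medium and Srebf2 had 51.4, 52.5, 68.3 and 79.7 CPM. For both genes replicate 4 was the highest of its group and overlapped naive CM. The log2 fold change of Srebf1 was 0.32 (edgeR adjusted p = 0.0882) and that of Srebf2 0.09 (edgeR adjusted p = 0.675). Without regular medium replicate 4 Srebf1 was higher in naive CM by 0.47 (edgeR adjusted p = 8.75e-05), and it also passed with limma-voom (adjusted p = 0.0236).

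Libraries of a group differed in a common direction across these genes. The counts that follow cover the 31 genes only, and whether all genes did likewise was not tested. In naive CM, replicate 1 had the lowest level of the 4 libraries for 27 of the 31 genes. In IFNγ/LPS CM, replicate 3 was the lowest for 22 of 31. In regular medium replicates 1 and 2 were the lowest for 12 and 15 genes, and replicates 3 and 4 were the highest for 13 genes each. The sums over the 31 genes nevertheless stayed apart between naive CM, at 3598 to 4079 CPM, and both other groups, at 2623 to 2976 CPM in regular medium and 2690 to 2948 CPM in IFNγ/LPS CM. Leaving out naive CM replicate 1 left 5 genes higher and 21 lower in IFNγ/LPS CM against naive CM, and 25 higher and 1 lower in naive CM against regular medium.

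Compared directly, IFNγ/LPS CM and regular medium differed in both directions. Of the 31 genes 10 were higher in IFNγ/LPS CM, 14 were lower and 7 did not pass the test, against 35.4% higher and 36.4% lower over all genes, with a median log2 fold change of -0.10 against -0.03 over all genes. These shares lie near those of all genes. On library totals 2 genes, Insig2 and Scd2, were higher and 21 lower, against 20.3% and 59.5% of all genes and an all-gene median of -0.41. The calls of Ggps1 (0.02), Ebp (0.08), Sc5d (0.04), Srebf1 (0.11), Stard4 (0.11) and Acly (0.05) were lost on that scale, as were those of Msmo1 (-0.0012) and Scap (-0.05). Acat2 (-0.39), Hsd17b7 (-0.30) and Srebf2 (-0.39) passed there as lower. This comparison shares its libraries with the other 2, so its values are given beside theirs and not as a further test.

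Insig1 was 2.42-fold lower in IFNγ/LPS CM than in regular medium (log2 -1.28, edgeR adjusted p = 1.30e-13) and Insig2 was 2.71-fold higher (log2 1.44, edgeR adjusted p = 3.64e-15). Elovl6 was 2.20-fold lower, Tm7sf2 1.86-fold lower, Fasn 1.77-fold lower and Scd1 and Idi1 each 1.63-fold lower, so these genes were under the level of regular medium as well as that of naive CM. In contrast Scd2 was 1.46-fold higher than in regular medium (log2 0.55, edgeR adjusted p = 3.73e-06). Several genes stood at the level of regular medium within their spread: Fdps had a log2 fold change of 0.04 (edgeR adjusted p = 0.794), Lss 0.04 (edgeR adjusted p = 0.622), Pmvk -0.10 (edgeR adjusted p = 0.273) and Mvd -0.16 (edgeR adjusted p = 0.319). For these 4 a difference was not detected, which does not show that they were equal, and on library totals each of them was lower. Pmvk also passed as lower without regular medium replicate 2, at -0.17 (edgeR adjusted p = 0.0445). Dhcr7 was lower at -0.36 (edgeR adjusted p = 0.0324) with overlapping libraries, a call lost with limma-voom and, at an edgeR adjusted p of 0.0576 to 0.132, without IFNγ/LPS CM replicate 1, 2 or 3 or regular medium replicate 3 or 4.

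A further 37 genes of the same and adjoining pathways were counted whatever their result. In IFNγ/LPS CM against naive CM 17 rose (45.9%), 13 fell (35.1%) and 7 did not pass the test, against 36.1% and 35.8% of all genes. Their median log2 fold change was 0.04. On library totals 6 rose and 24 fell, against 20.3% and 58.1% of all genes. The counts of the 4 lists within them are given as a description, on the same background. Of 10 genes of SREBP processing and sterol sensing 6 rose and 1 fell, though 1 rose and 6 fell on library totals. The largest rise there was that of Erlin2, part of a complex that targets endoplasmic reticulum proteins for breakdown, from 76.8 ± 2.02 to 129 ± 5.38 CPM (log2 0.75, SE 0.0404, edgeR adjusted p = 2.43e-12), which was 0.36 on library totals. Rnf139, a ubiquitin ligase of that membrane, rose by 0.47 and Tmem97 by 0.31 on the log2 scale, values that were 0.09 and -0.08 on library totals and did not pass there. Mbtps1, the protease that makes the first cut in SREBP precursors, fell from 238 ± 2.63 to 171 ± 3.35 CPM (log2 -0.47, SE 0.0346, edgeR adjusted p = 2.82e-10).

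Sterol oxidation and reduction draw electrons from Por, the reductase of cytochrome P450 enzymes, and from cytochrome b5. Of the 5 genes of electron supply and pathway entry 3 fell and 1 rose. Por rose from 69.5 ± 1.24 to 121 ± 3.36 CPM (log2 0.79, SE 0.050, edgeR adjusted p = 2.77e-11). Cyb5r3, the cytochrome b5 reductase, fell from 632 ± 7.00 to 349 ± 13.6 CPM. Cyb5b, a form of cytochrome b5, fell from 384 ± 16.2 to 235 ± 8.38 CPM, and whether this form serves sterol synthesis was not tested. Acat1, the mitochondrial thiolase, fell by 0.87 on the log2 scale. All 4 kept their direction on library totals.

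Isoprenoid branches that lead away from cholesterol gave 6 rises and 3 falls among 11 genes, and 2 rises and 5 falls on library totals. Rabggta, a subunit of the enzyme that attaches geranylgeranyl groups to Rab proteins, rose 2.61-fold from 12.3 ± 0.688 to 32.1 ± 1.93 CPM (edgeR adjusted p = 2.75e-13). Nus1, needed to make dolichol, rose 1.86-fold from 59.0 ± 2.10 to 110 ± 3.41 CPM (edgeR adjusted p = 2.90e-13). These 2 were the rises that held on library totals, at 1.00 and 0.51 on the log2 scale. Pdss1, for the side chain of coenzyme Q, rose by 0.55 but stood at 0.16 there (adjusted p = 0.312). The farnesyltransferase subunits fell, Fnta by 0.47 and Fntb by 0.33, and so did Icmt, which methylates the farnesylated end, by 0.32.

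Among 11 other fatty acid genes 6 fell and 4 rose, and on library totals 9 fell and 2 rose. The falls were led by Fads2 from 172 ± 7.14 to 59.0 ± 5.52 CPM (2.92-fold, edgeR adjusted p = 3.40e-14) and Fads1 from 267 ± 6.51 to 106 ± 1.51 CPM (2.53-fold, edgeR adjusted p = 8.87e-17), the desaturases of polyunsaturated fatty acids. Gpam, which starts triglyceride and phospholipid synthesis, fell 2.78-fold from 265 ± 10.4 to 95.4 ± 4.20 CPM (edgeR adjusted p = 7.73e-16). Acss2, which makes acetyl-CoA from acetate, rose 1.55-fold and Acacb, the mitochondrial relative of Acaca, rose 1.49-fold, both also on library totals. Slc25a1, the citrate carrier, rose by 0.21 but was at -0.18 on library totals (adjusted p = 0.00350). In naive CM against regular medium 15 of the 37 genes rose (40.5%) and 4 fell (10.8%), against 18.3% and 16.4% of all genes. Their median log2 fold change was 0.12, and 7 of the 11 other fatty acid genes rose and none fell.

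**Figure D4:**
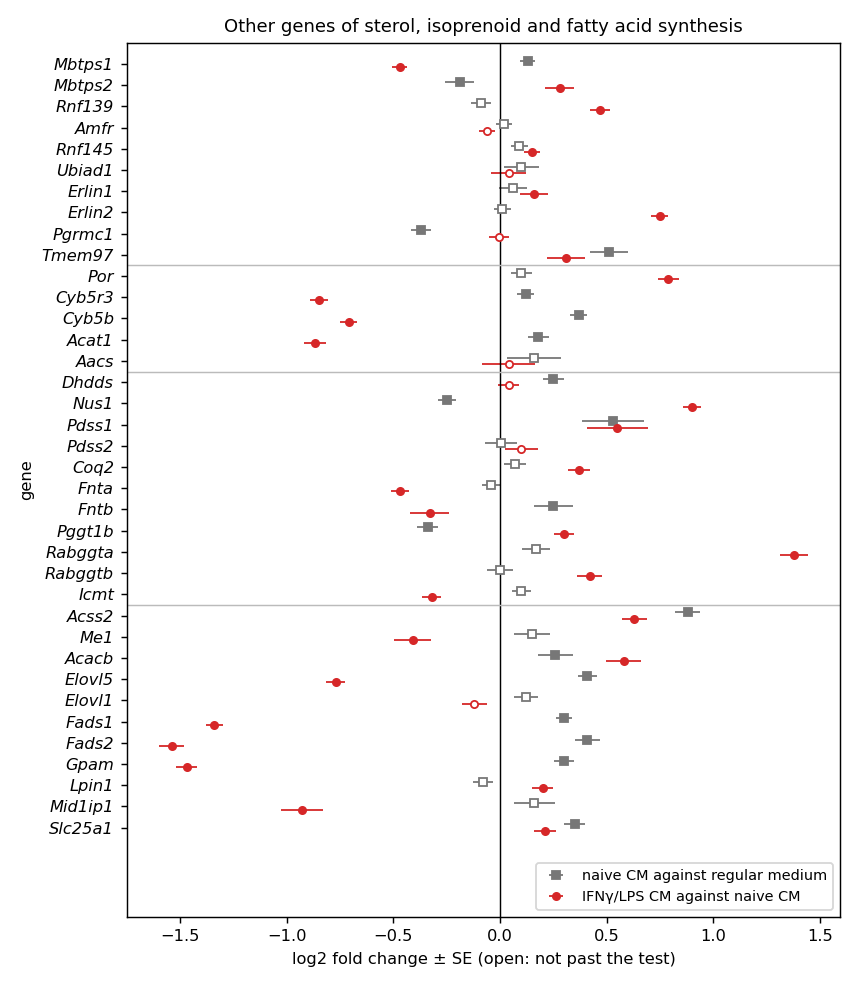
Log2 fold change with SE of 37 further genes of SREBP processing, electron supply, isoprenoid branches and fatty acid metabolism (rows, separated by lines), as grey squares for naive CM set against regular medium and red circles for IFNγ/LPS CM set against naive CM; open symbols did not pass the test. Fads1, Fads2 and Gpam lie lowest among the red circles, from -1.54 to -1.34, and Rabggta highest, at 1.38.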

How the data were processed

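The 12 libraries held RNA of cultured mouse aortic smooth muscle cells. The authors deposited 1 table of estimated counts (expected counts) per gene as whole numbers, taken here as rounded values. Per the submitters' processing notes Salmon 1.10.1 and the mm10 build were used, with their roles and the annotation release not given in the sources used here. Groups came from the sample titles. Table columns named M0 and M1 were read as naive and IFNγ/LPS macrophages, names that the labels leave unexplained, so every direction depends on that reading.

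Gene names were joined to GENCODE M21 by identifier without version (51344, or 92.0%, matched), and exon lengths, positions and overlaps were taken from it. On the opposite strand, exons of other genes also overlap Scap by 985 bases, Hmgcs1 by 557, Lss by 381 and Idi1 by 323. The same holds for Ggps1 (257), Cyp51 (166) and Elovl6 (34). The effect of exon overlaps on the counts was not tested. Promoters came from RefSeq on GRCm38.p6. In R 4.3.3, genes were kept by filterByExpr of edgeR 4.0.16, scaled by TMM and tested with its two-sided robust quasi-likelihood F-test in 1 model of 12 libraries (9 residual degrees of freedom), with Benjamini-Hochberg adjustment over 16140 genes at 0.05. The SE, an approximation, is the log2 fold change divided by the root of F. CPM are per 1000000 of the scaled total. Within-library ratios used counts plus 0.5 and a two-sided exact permutation test. Only the edgeR fit was tested on simulated counts, in which far fewer genes changed than were called here. The alternatives used DESeq2 1.42.0 and limma 3.58.1, other scalings and filters, the groups compared alone, the replicate number as a block, and each library left out.

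Same-numbered libraries were not treated as paired: deviations from the group mean correlated at -0.134 to 0.197 in 12 same-numbered pairs, of which 3 exceeded 0.1. Genes were named by a fixed rule: all 31 by role, with every library for up to 2 called genes with the largest fall and rise per role in IFNγ/LPS CM against naive CM, 1 each way in naive CM against regular medium, and Insig1, Insig2, Srebf1, Srebf2, Scd1 and Scd2; of the 37 other genes up to 3 each way per list. The members, lists and rules were chosen with earlier results of these data known. Some genes of the pathway are not reported here.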

Additional observations from a re-analysis of the deposited data

Results flagged for a closer look

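The 31 genes in 3 groups gave 93 sets of 4 libraries, and in 6 of them 1 library lay apart by more than Dixon's 95% critical value for the gap over the range. Chance flags about 1 set in 20. Naive CM replicate 1 was low for Idi1, at 80.5 CPM against 96.2 to 97.5 in the others, for Acaca, at 119 CPM against 129 to 130, and for Scd2, at 863 CPM against 992 to 1008. Naive CM replicate 2 was high for Pmvk, at 20.7 CPM against 18.4 to 18.7. IFNγ/LPS CM replicate 3 was low for Mvd, at 8.12 CPM against 10.3 to 10.4, and regular medium replicate 2 was low for Acat2, at 30.6 CPM against 35.3 to 36.2. The calls of these genes in IFNγ/LPS CM against naive CM and in naive CM against regular medium were the same with each of these libraries left out.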

How the results depend on the processing

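Over 20 alternatives, 22 of the 31 genes kept their call in IFNγ/LPS CM against naive CM, 24 in naive CM against regular medium and 15 in IFNγ/LPS CM against regular medium. Without counting library totals these were 29, 24 and 29. Library totals in place of TMM gave 2 genes higher in IFNγ/LPS CM against naive CM and 2 higher against regular medium, and moved the share of all calls that were higher from 50.2% to 25.9% and from 49.3% to 25.5%. On that scale Ebp (-0.17), Sc5d (-0.07), Scap (-0.11), Acly (-0.32) and Srebf1 (-0.21) changed sign against naive CM, and Fdps (-0.35), Lss (-0.34), Msmo1 (-0.0012), Hsd17b7 (-0.30) and Scap (-0.05) against regular medium. The choice of scale was the only change made there.

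In naive CM against regular medium, 2 genes were lower with the replicate block, and 0 with a fit of the groups compared alone, with the DESeq2 Wald test and with limma-voom; leaving out 1 library gave 0 to 2. For those zeros, Insig2 kept a log2 fold change of -0.14 to -0.11. Leaving out 1 library gave 21 to 25 genes higher there, 20 to 21 lower and 5 to 6 higher in IFNγ/LPS CM against naive CM, and 13 to 15 lower and 10 higher against regular medium. The ratios stayed within -3.05 to -2.92 for Insig1 to Insig2, 0.23 to 0.32 for Srebf1 to Srebf2 and -1.27 to -1.25 for Scd1 to Scd2. With the replicate number as a block (paired signs), the ratio differences were -2.99, 0.28 and -1.26, each at an exact p of 0.125, the smallest that 4 pairs can give. The block gave 24 genes higher in naive CM against regular medium and 5 higher and 20 lower in IFNγ/LPS CM against naive CM. Of the 12 libraries 4 correlated best with a library of their own number. Counts of RNA from bulk cells do not show SREBP cleavage, protein or sterol levels.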
